A study of Mus musculus with 4 samples.

Results

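The genes described here are Zic1, Zic2, Zic4 and Zic5, 4 of the 20136 genes listed in single-cell count tables from the mouse bed nucleus of the stria terminalis (BNST). They were chosen by name, as members of the Zic family, and were followed across neurons and glia gated by marker transcripts. The tables come from 4 Drop-seq libraries, a droplet method in which each captured RNA molecule carries a unique molecular identifier (UMI) and each cell a barcode. Each library was made from tissue punches pooled over 6 mice, so that 24 male wildtype C57BL/6J mice contributed, in a study of Pnoc, the nociceptin precursor gene, and arousal. The mice were kept on a reversed light cycle and no treatment, allele or control group was compared. Every comparison therefore sets cells of the same libraries side by side, and the libraries are 4 pools of a single group, whose spread is that between pools and their preparation.

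Zic proteins are zinc-finger transcription factors, related in their finger domain to the Gli factors that act downstream of hedgehog signals. They are known for their roles at the dorsal and ventral midline of the developing nervous system, in the neural crest and in the cerebellum, and for expression in the septum and other medial forebrain territories. Zic1 and Zic4, and Zic2 and Zic5, are neighbours that point away from each other in the genome.

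In GENCODE vM21 on GRCm38, Zic1 (ENSMUSG00000032368.14) spans chr9:91358058-91365810 on the minus strand and Zic4 (ENSMUSG00000036972.14) spans chr9:91362413-91389348 on the plus strand. In this annotation the 5′ parts of the pair overlap by 3398 bases. By their RefSeq start sites, used for the promoter windows, they lie 3204 bases apart, and the Zic4 window is inside the GENCODE span of Zic4. Zic5 (ENSMUSG00000041703.7) spans chr14:122456795-122465677 on the minus strand and Zic2 (ENSMUSG00000061524.8) spans chr14:122475435-122479852 on the plus strand, with a gap of 9757 bases between them. Counting strand is not given in the sources used here, and the libraries are read from the 3′ end of transcripts. The 3′ end of Zic1 lies 4355 bases outside the Zic4 span and that of Zic4 lies 23538 bases outside the Zic1 span, so that neither 3′ end is shared.

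**Figure D1:**
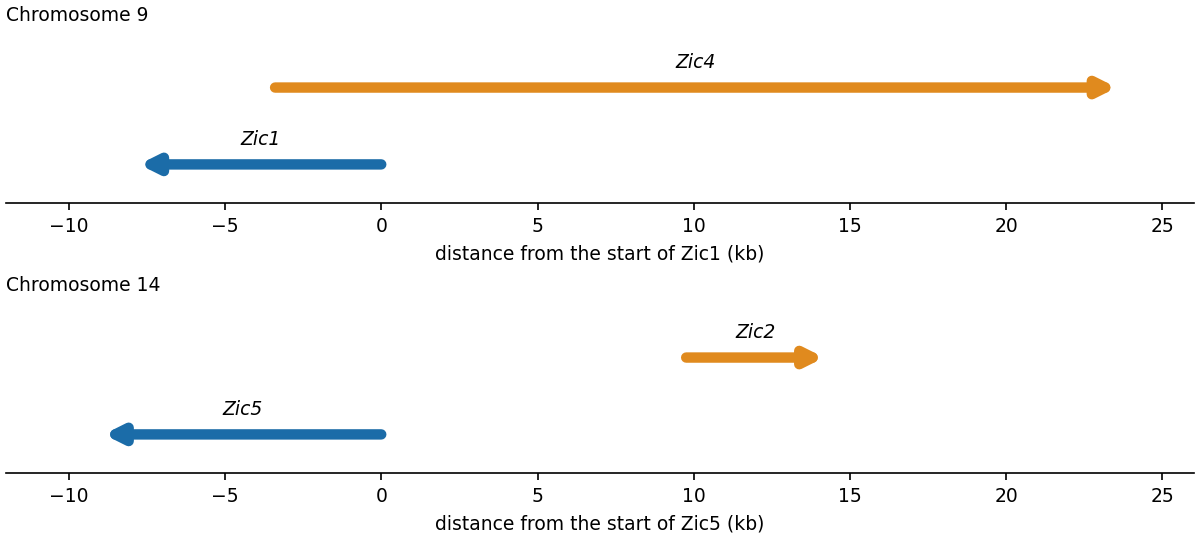
Gene spans of the Zic pairs on chromosomes 9 and 14, drawn to scale as distance in kilobases from the annotated start of the minus-strand gene, with arrows pointing from 5′ to 3′. In GENCODE vM21, Zic1 and Zic4 overlap at their starts by 3398 bases, and Zic5 and Zic2 are 9757 bases apart.

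The promoter windows of the members with a RefSeq entry (GRCm38.p6, 250 bases before to 50 after the start site) are shown because members of both pairs were detected in the same cells. A search of both strands covered the CCAAT box (CCAAT), the GC box (GGGCGG), the TATA box (TATAAA) and a core of the described Zic site (CAGCAGG), with no overlap between matches. Capitals mark the matches on either strand.
Zic1, chr9:91365719-91366018, minus strand: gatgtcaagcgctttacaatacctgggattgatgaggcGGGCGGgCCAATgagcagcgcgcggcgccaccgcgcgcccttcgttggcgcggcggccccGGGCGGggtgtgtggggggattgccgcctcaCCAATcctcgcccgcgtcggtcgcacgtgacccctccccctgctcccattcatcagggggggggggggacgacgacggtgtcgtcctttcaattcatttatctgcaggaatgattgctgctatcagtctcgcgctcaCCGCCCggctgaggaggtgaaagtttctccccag
Zic4, chr9:91368722-91369021, plus strand: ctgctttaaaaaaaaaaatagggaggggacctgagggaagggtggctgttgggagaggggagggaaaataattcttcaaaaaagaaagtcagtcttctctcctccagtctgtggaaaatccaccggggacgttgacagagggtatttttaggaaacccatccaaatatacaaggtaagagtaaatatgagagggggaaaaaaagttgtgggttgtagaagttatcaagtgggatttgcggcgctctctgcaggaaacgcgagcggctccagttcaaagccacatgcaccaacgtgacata
Zic5, chr14:122465609-122465908, minus strand: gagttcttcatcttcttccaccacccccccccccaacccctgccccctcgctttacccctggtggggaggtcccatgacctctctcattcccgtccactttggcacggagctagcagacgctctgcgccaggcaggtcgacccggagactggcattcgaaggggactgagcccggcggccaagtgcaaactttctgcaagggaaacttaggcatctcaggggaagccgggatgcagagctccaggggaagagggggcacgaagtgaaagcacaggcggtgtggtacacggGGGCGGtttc
The Zic1 window held 2 matches of CCAAT and 3 of GGGCGG, the Zic5 window 1 of GGGCGG and the Zic4 window none of the 4 motifs. Among 32851 RefSeq promoter windows of the same length, 37.4% held CCAAT, 35.7% GGGCGG, 13.6% TATAAA and 10.5% CAGCAGG. The Zic1 window had 31 CpG pairs, that of Zic5 15 and that of Zic4 8, against a median of 7.

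The tables held 10200 barcodes with 14018026 UMIs, between 2640399 and 5652342 per library. Of these barcodes, 4177 passed the filters, 836 to 1281 per library, with a median of 1843 UMIs, and no kept barcode sequence occurred in more than 1 library. Marker UMIs placed 2505 cells among the neurons, and 86.1% of these carried GABAergic genes, as the labelled region is known to. The other gated classes were 904 oligodendrocytes, 384 astrocytes, 41 endothelial cells, 26 mural cells, 26 oligodendrocyte precursors, 9 microglia, 4 committed precursors and 2 fibroblasts, while 276 cells met no gate and no cell met the ependymal gate. No Zic gene was part of any gate.

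Over all barcodes, 827 UMIs of Zic1, 198 of Zic4, 67 of Zic5 and 52 of Zic2 were counted. In the kept cells these were 719 UMIs of Zic1 in 331 cells, 169 of Zic4 in 128 cells, 58 of Zic5 in 53 cells and 46 of Zic2 in 41 cells. No cell held more than 9 UMIs of Zic1 or 4 of Zic4. These members are thus sparse in the data, and a cell without a UMI may still express the gene. In barcodes with fewer than 200 detected genes, which can hold free RNA, Zic1 stood at 57.9 counts per 1000000 UMIs (CPM; 34 UMIs) against 59.8 CPM in kept cells. In gated oligodendrocytes of the same libraries, 4 of 904 cells had a Zic1 UMI, at a median of 1386 UMIs. The part of free RNA in single UMIs was not tested.

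Zic1, known for its part in cerebellar and midline development, was present in GABAergic neurons of every library, was higher in glutamatergic neurons and was at or near 0 in oligodendrocytes. In GABAergic neurons it stood at 36.9, 49.6, 87.8 and 98.9 CPM in libraries 1 to 4, a mean of 68.3 ± 29.7 (SD, n = 4), with 240 of 2156 cells positive. Libraries 3 and 4 were higher than libraries 1 and 2 in CPM. The exact 95% intervals of the share of cells with a UMI overlapped between libraries 2 (7.39 to 13.0%), 3 (9.46 to 16.6%) and 4 (11.5 to 17.1%). That of library 1 (6.31 to 10.6%) lay below that of library 4. Cells were deepest in library 1, with a median of 4630 UMIs, and shallowest in library 4, with 2623.5. The part of depth in this spread was not tested. When every cell was thinned to 1000 UMIs, 5.84% ± 2.57 (SD, n = 4) of GABAergic neurons had a Zic1 UMI, against 11.1% unthinned, with 181 shallower cells left out. In oligodendrocytes the thinned share was 0.312% ± 0.290.

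The glutamatergic neurons, a small class of 83 cells that all carried Slc17a6, the gene of a vesicular glutamate transporter, had Zic1 UMIs in 33 cells (39.8%, exact 95% interval 29.2 to 51.1%). Their Zic1 level was 128.9, 196.9 and 343.5 CPM in libraries 1, 2 and 4, a mean of 223.1 ± 109.7 (SD, n = 3). Library 3 had 7 such cells, too few for a sum, and is left out of that mean and of the fit. Each of the 3 libraries lay above its own GABAergic value and above all 4 GABAergic values. Zic1 was higher than in GABAergic neurons by 1.68 on the log2 scale (SE 0.26, adjusted p = 1.44e-08 by edgeR's quasi-likelihood test), where 3.37% of the 5614 genes tested were called.

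Among neurons with too few transmitter UMIs to be placed, a shallow class of 266 cells with a median of 836.5 UMIs, Zic1 stood at 84.4, 119.5, 239.6 and 171.2 CPM. Its difference from GABAergic neurons, 0.90 on the log2 scale (SE 0.28), had an adjusted p of 0.0679, where 1.64% of genes were called. The call depended on the processing, since size factors of the relative log expression kind gave 1.11 (adjusted p = 0.0200).

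In astrocytes 5 of 384 cells had a Zic1 UMI, with levels of 18.6, 0, 9.75 and 29.7 CPM. Oligodendrocytes had 4 Zic1 UMIs in 904 cells, 1 in each library, a level of 2.75 ± 0.69 CPM (SD, n = 4). Both classes were lower than GABAergic neurons in each library, and the ranges over libraries did not overlap. The difference was -1.95 (SE 0.56, adjusted p = 0.00106) in astrocytes, where 64.7% of genes were called, and -4.19 (SE 0.46, adjusted p = 2.18e-19) in oligodendrocytes, where 74.7% were called. With at least 800 detected genes per cell the astrocyte difference was -1.66 and no longer passed (adjusted p = 0.286).

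Zic4, the partner of Zic1 on chromosome 9, stood at 10.6, 11.6, 14.9 and 19.6 CPM in GABAergic neurons (mean 14.1 ± 4.06, SD, n = 4), in 93 of 2156 cells. At 1000 UMIs per cell, 1.68% ± 0.658 of GABAergic neurons had a Zic4 UMI. Glutamatergic neurons had Zic4 in 14 of 83 cells (16.9%, exact 95% interval 9.54 to 26.7%), at 42.0, 52.5 and 0 CPM in libraries 1, 2 and 4, so that library 4 lay below the GABAergic range. Oligodendrocytes had 0 Zic4 UMIs in 904 cells, which allows a share of cells with a UMI of up to 0.332% (3 counts of the total), a level at least 6.86-fold lower than in GABAergic neurons when the floor is set at 3 counts over the class. Zic4 did not pass the filter on low counts in the fit across classes. Without that filter its glutamatergic difference was 1.15 (SE 0.45, adjusted p = 0.182), and it was called lower in oligodendrocytes (adjusted p = 3.69e-07). Astrocytes had 3 Zic4 UMIs in 2 of 384 cells, at 9.76 ± 14.0 CPM (SD, n = 4). Their difference from GABAergic neurons without the filter was -0.87 (SE 0.79, adjusted p = 0.507) and did not pass. In the unplaced neurons Zic4 stood at 101.3, 47.8, 39.9 and 27.0 CPM, above the GABAergic range in each library, and was called higher without the filter (log2 1.54, SE 0.44, adjusted p = 0.0175).

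Zic2, known for its role in forebrain midline formation and in axon crossing, and Zic5, its partner on chromosome 14, were detected in few GABAergic neurons. Zic2 UMIs were in 24 and Zic5 UMIs in 31 of 2156 cells. Zic2 stood at 1.94, 1.58, 3.54 and 5.15 CPM and Zic5 at 1.11, 4.22, 2.83 and 8.24 CPM. Library 4 was the highest for both genes, as it was for Zic1 and Zic4. Glutamatergic neurons had Zic2 in 7 and Zic5 in 9 of 83 cells. Of the members only Zic1 and Zic2 passed the filter across classes. The Zic2 difference between glutamatergic and GABAergic neurons was 2.36 (SE 0.92, adjusted p = 0.172). Astrocytes had no UMI of Zic2 or Zic5 in 384 cells, which allows a share of cells with a UMI of up to 0.781%, and oligodendrocytes none in 904. Zic2 was called lower in oligodendrocytes (adjusted p = 0.0395; 74.7% of genes called), at least 1.44-fold with the floor at 3 counts over the class, and did not pass without the low-count filter (adjusted p = 0.0646).

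In vascular cells the members were found in few cells, Zic1 and Zic4 in mural cells, Zic2 in endothelial cells and Zic5 in both. Of 26 mural cells, 6 had Zic1 (10 UMIs) and 3 had Zic4 (5 UMIs), while 1 had Zic5 and none had Zic2. Library 1 held 8 of the 10 Zic1 UMIs and 4 of the 5 Zic4 UMIs, and library 3 held none. The pooled mural level of Zic1 was 367.8 CPM (exact Poisson 95% interval 176.4 to 676.3). Of 41 endothelial cells, none had Zic1 or Zic4, which allows a share of cells with a UMI of up to 7.32%, while 3 had Zic2 (5 UMIs) and 2 had Zic5 (3 UMIs). The endothelial UMIs of Zic2 came from libraries 1 and 2 and those of Zic5 from library 1. Zic2 stood at 106.3 ± 11.8 CPM (SD, n = 2) in endothelial cells and at a mean of at most 19.4 CPM in the other classes fitted. Zic2 was called higher in endothelial cells than in GABAergic neurons (log2 5.41, SE 1.23, adjusted p = 8.07e-05), where 38.7% of genes were called. That call rests on 5 UMIs in 3 cells. Zic2 probably passed the low-count filter through the endothelial sums, so the call is not independent of the filter. Without the filter the difference was 4.64 (SE 1.20, adjusted p = 0.00143). Without library 1 it was 4.50, with only library 2 left in the endothelial class. No sum of mural cells reached 10 cells in a library, so their levels carry no test.

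**Figure D2:**
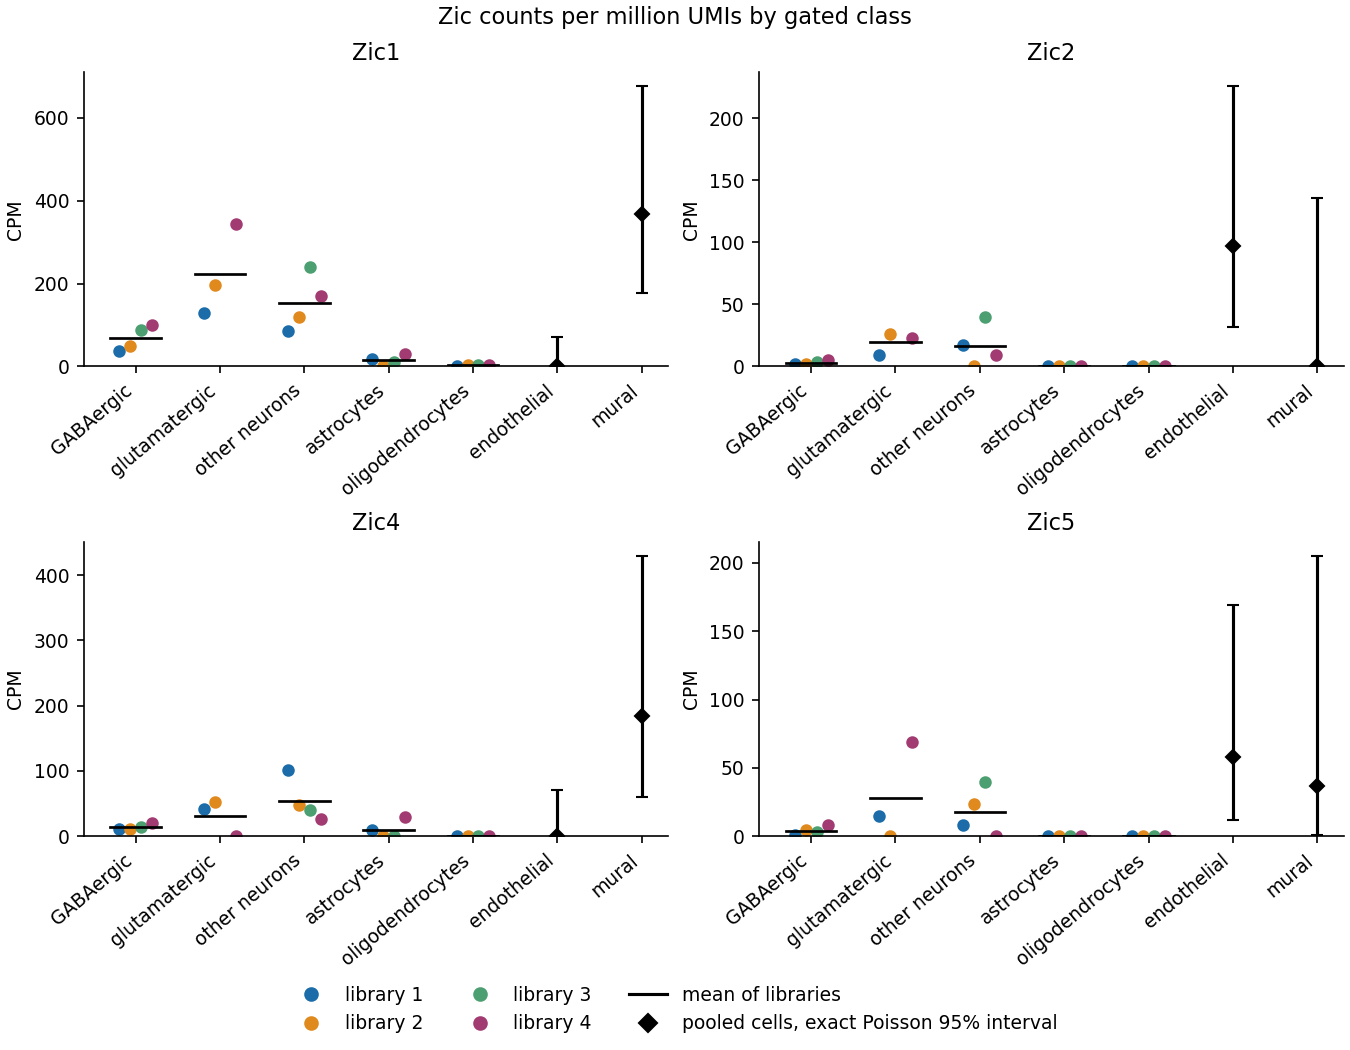
Counts per 1000000 UMIs (CPM) of each member by gated class, on linear axes that start at 0 and differ between panels. Points are libraries with at least 10 cells of the class and horizontal lines their means; diamonds are endothelial and mural cells pooled over libraries with exact Poisson 95% intervals. Zic1 lies between 36.9 and 98.9 in GABAergic neurons and between 128.9 and 343.5 in glutamatergic neurons.

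Within the GABAergic neurons, 17 overlapping gates of at least 2 UMIs over named subtype genes were compared with all other GABAergic neurons. Of these neurons 1113 fell into more than 1 gate and 430 into none, so the gates are not independent of each other. Zic1 passed the test in 9 of 17 gates, lower in 7 and higher in 2. Zic4 was lower in 6 gates and higher in none, all of them gates in which Zic1 was lower. Zic2 and Zic5 passed the filter on low counts in no gate. Among all genes tested, the share called was 0.942% to 20% over the gates. In the 8 gates where Zic1 did not pass, it was 3.82% for Tac2 or Ebf1, 1.35% for Sst or Npy, 1.63% for Six3 or Ifi27l2a, 0.942% for Tshz1 or Foxp2, 2.69% for Avp or Gal, 1.82% for Pnoc, 1.67% for Nts and 3.75% for Vip or Calb2.

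The gates in which Zic1 was lower were those of Penk, Cartpt, Slc17a8, Cck or Greb1, Ppp1r1b or Crym, Crh or Wif1, and Tac1. Neurons gated on Penk, the enkephalin precursor, had Zic1 at 11.4, 19.9, 13.1 and 17.6 CPM against 85.0 ± 36.9 (SD, n = 4) in the other GABAergic neurons. All 4 libraries were lower in the gate, by 2.29 on the log2 scale (log2 -2.29, SE 0.22, adjusted p = 4.25e-14; 6% of genes called). Those gated on Cartpt, which encodes the CART peptide, had Zic1 at 12.4, 19.5, 22.4 and 33.0 CPM (log2 -1.85, SE 0.22, adjusted p = 5.94e-09; 3.78% of genes called). Zic4 had 1 UMI in the 341 Cartpt cells (log2 -4.66, SE 0.75, adjusted p = 1.15e-05) and 6 in the 528 Penk cells (log2 -2.63, SE 0.47, adjusted p = 1.67e-05).

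Neurons gated on Slc17a8, the gene of another vesicular glutamate transporter, had 1 Zic1 UMI in 82 cells (log2 -4.73, SE 0.74, adjusted p = 2.13e-06; 3.74% of genes called) and no Zic4 UMI, at least 1.80-fold lower than the other neurons though not called (adjusted p = 0.104). Those gated on Cck, the cholecystokinin precursor, or Greb1 had 5 Zic1 UMIs in 152 cells, all in library 1 (log2 -3.74, SE 0.44, adjusted p = 1.49e-10; 5.26% of genes called). The gate of Ppp1r1b, which encodes the dopamine-regulated phosphoprotein DARPP-32, or Crym had Zic1 at 5.38, 0, 0 and 35.4 CPM (log2 -2.64, SE 0.36, adjusted p = 2.05e-10; 20% of genes called). All 3 gates lay below the other GABAergic neurons in each library, although library 4 of the last stood apart from its other libraries.

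The gates of Crh or Wif1 and of Tac1 were also lower in Zic1. Crh encodes corticotropin-releasing hormone and Tac1 the substance P precursor. Zic1 was 19.6 ± 8.32 CPM in the Crh or Wif1 gate (log2 -1.77, SE 0.27, adjusted p = 1.43e-05; 5.69% of genes called) and 18.5 ± 13.3 CPM in the Tac1 gate (log2 -1.88, SE 0.30, adjusted p = 0.000237; 1.98% of genes called), each lower in 4 of 4 libraries. Zic4 was lower in the same gates as well (log2 -2.67, SE 0.68, adjusted p = 0.0109, and log2 -2.57, SE 0.66, adjusted p = 0.0311), as in the gates of Cck or Greb1 (log2 -3.73, SE 0.94, adjusted p = 0.00568) and Ppp1r1b or Crym (log2 -2.71, SE 0.80, adjusted p = 0.00716). These 4 Zic4 calls rest on 1 to 3 UMIs in the gate. Each was lost when at least 1 of the libraries was left out.

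Zic1 was higher in neurons gated on Lhx8, a factor of the medial ganglionic eminence and of cholinergic neurons, or Rorb. It stood there at 96.8, 53.7, 160.2 and 168.8 CPM against a mean of 64.7 ± 29.0 (SD, n = 4) in the other GABAergic neurons. Every library was higher in the gate, and 29 of its 100 cells had a Zic1 UMI (log2 0.91, SE 0.23, adjusted p = 0.00283; 10.1% of genes called). Without library 1 the Zic1 difference was 0.63 with an adjusted p of 0.198, and a gate of at least 3 UMIs gave 0.55 (adjusted p = 0.370). Gated cells were deeper than the rest, with a median of 5797 against 3383 UMIs. The gates in which Zic1 was lower were deeper too, from 6032 against 3374 for Cck or Greb1 to 3554.5 against 3469.5 for Penk. The exception was Ppp1r1b or Crym (3395 against 3508). The part of depth in the gate differences was not tested.

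The gate of Prkcd, a protein kinase C gene of the oval BNST and central amygdala, was called higher in Zic1 (log2 1.26, SE 0.35, adjusted p = 0.00863; 6.51% of genes called). Its libraries did not move together, at 0, 105.4 and 406.7 CPM in libraries 1, 2 and 4, with library 3 left out for its 6 cells. Library 1 was below the other GABAergic neurons, and without library 4 the difference was 0.34 (adjusted p = 0.904). The gate held 36 Zic1 UMIs in 44 cells of these libraries, and 26 of them were in 6 cells of library 4.

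Neurons gated on Pnoc, the gene the study was about, had Zic1 at 43.8, 48.0, 85.5 and 171.9 CPM in 47 of 276 cells. The values overlapped the other GABAergic neurons, and the difference of 0.43 (SE 0.18, adjusted p = 0.336) did not pass. It passed at a mitochondrial limit of 5% (0.75, adjusted p = 0.0311) and with a gate of 1 UMI (0.51, adjusted p = 0.0494), turned to -0.083 with a gate of 3 UMIs (adjusted p = 0.967) and did not pass in 13 of 15 alternatives. The neurons in no gate, 430 cells with a median of 1934 UMIs, held 71 of the 240 Zic1 cells (29.6%), at 30.6, 129.1, 243.8 and 192.9 CPM in libraries 1 to 4.

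**Figure D3:**
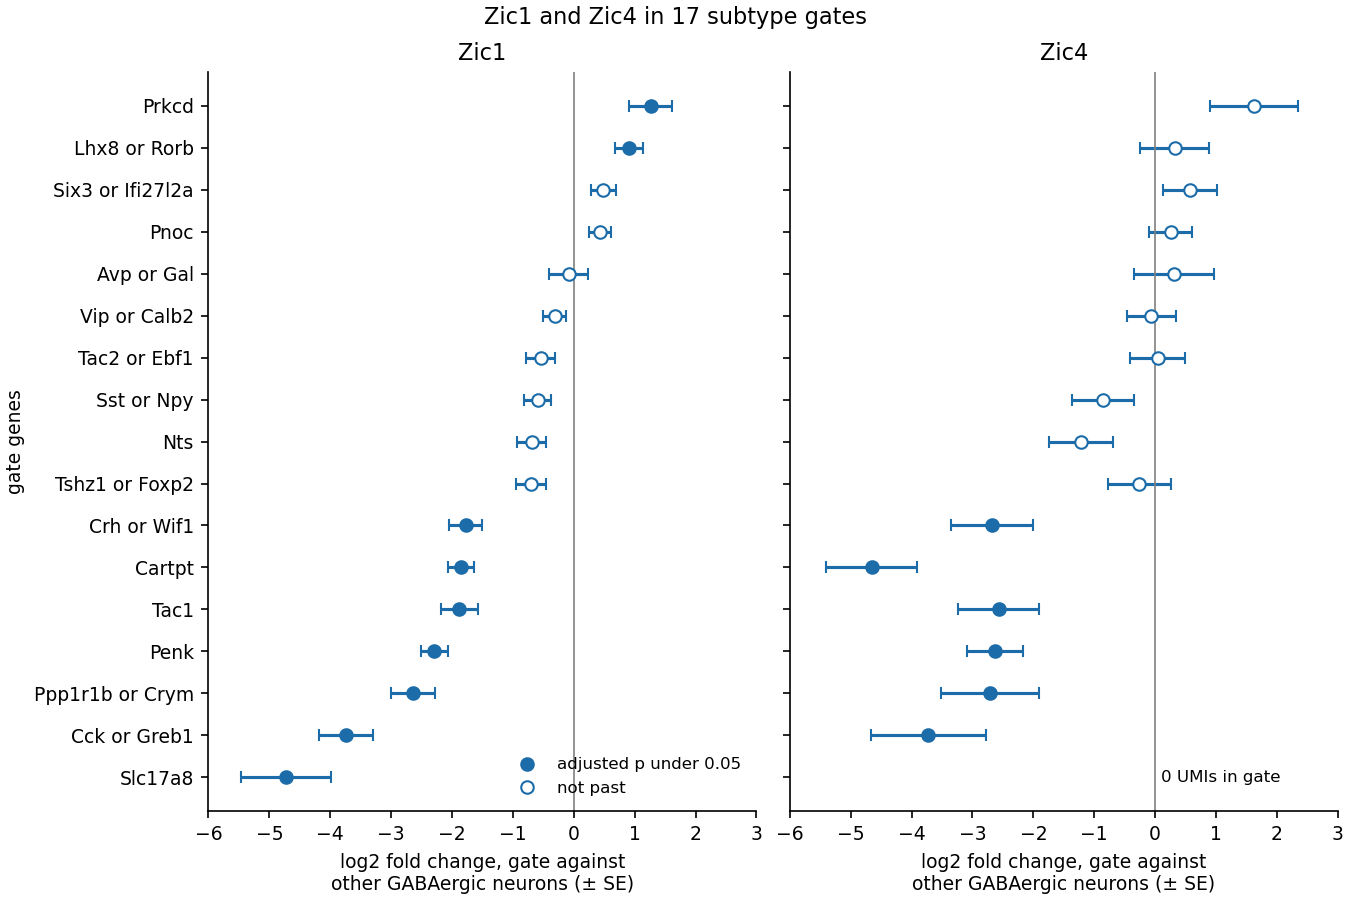
Fitted log2 fold change of Zic1 and Zic4 in each subtype gate against all other GABAergic neurons, with standard errors; filled points passed an adjusted p of 0.05. Zic1 runs from -4.73 in the Slc17a8 gate to 1.26 in the Prkcd gate, and Zic4 has no point in the Slc17a8 gate because it had 0 UMIs there.

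Across 23 profiles of classes and gates, which share libraries and cells, the genes whose log2(CPM + 1) was most like that of Zic1 among those with a mean of at least 20 CPM were Lhfpl5 (Pearson r = 0.82), Zfhx4 (0.77), F8a (0.77), 1110001J03Rik (0.74) and Vps13c (0.73). The mean of Zic4 was under that minimum, and its r with Zic1 was 0.86. The r with Zic1 was 0.39 for Zic5 and 0.02 for Zic2. These correlations describe profiles that are not independent.

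Members were detected in the same cells more often than cell depth and library predict. Of the GABAergic neurons, 279 had at least 1 member, and of these 190 had exactly 1, 72 had 2, 14 had 3 and 3 had all 4. Of the 34 glutamatergic neurons with a member, 18 had more than 1. The number expected was computed within each library and each of 5 strata of UMIs per cell, so that differences in depth enter it.

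Zic1 and Zic4, the overlapping neighbours, were together in 63 GABAergic neurons where 11.8 were expected, a ratio of 5.35. By library the observed and expected numbers were 22 and 3.23, 11 and 1.85, 12 and 1.91, and 18 and 4.79. Every library was above expectation, with ratios of 6.81, 5.95, 6.29 and 3.76. The exact sign-flip permutation test over 4 libraries (two-sided) gave p = 0.13, the smallest it can give.

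The chromosome 14 neighbours, Zic2 and Zic5, were together in 5 cells where 0.352 were expected, a ratio of 14.2, with none in library 3. Pairs across the chromosomes were also above expectation. Zic1 and Zic5 shared 24 cells (3.99 expected, ratio 6.01), Zic1 and Zic2 16 (3.13 expected, ratio 5.11), Zic4 and Zic5 13 (1.36 expected, ratio 9.57) and Zic2 and Zic4 11 (1.24 expected, ratio 8.88). Each of these 4 pairs was above expectation in 4 of 4 libraries, with the same p of 0.13 by the exact sign-flip test. Co-detection was thus not limited to neighbouring genes, and the ratios of single libraries, which ran from 3.01 to 19.7 for these pairs, overlap between pairs.

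The share of cells with Zic4 was larger in cells with more Zic1 UMIs. It was in 1.57% of the 1916 GABAergic neurons without a Zic1 UMI, in 13.7% of the 102 with 1, in 25.9% of the 58 with 2 and in 42.5% of the 80 with 3 or more (exact 95% interval 31.5 to 54.1%). Zic5 was in 0.365%, 5.88%, 5.17% and 18.8% of these cells, and Zic2 in 0.418%, 5.88%, 5.17% and 8.75%. Both were lowest in cells without Zic1, and the exact intervals of Zic2 overlapped among the groups with 1, 2 and 3 or more. Median depths of the groups were 3462.5, 3157.5, 3530 and 4298.5 UMIs. Their part in the shares was not tested. Read the other way, 67.7% of the 93 cells with Zic4, 77.4% of the 31 with Zic5 and 66.7% of the 24 with Zic2 had a Zic1 UMI.

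**Figure D4:**
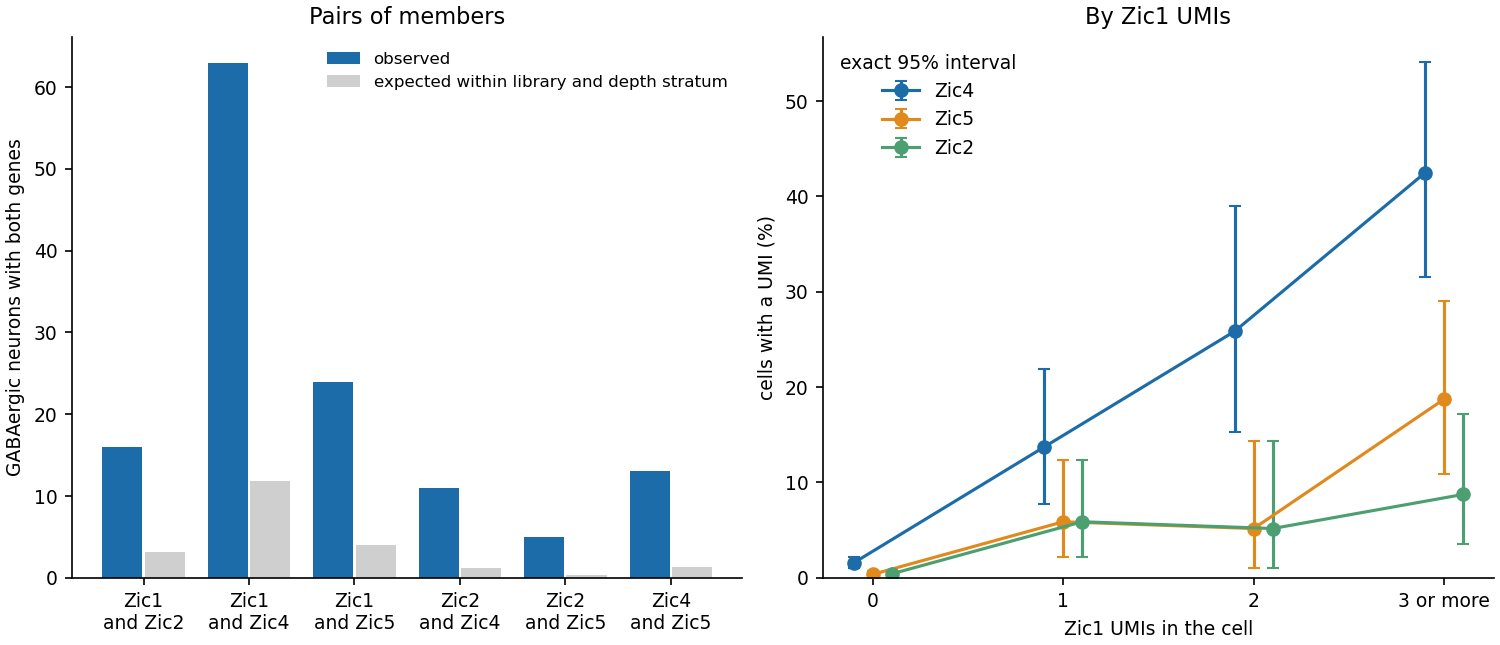
Left, number of GABAergic neurons with a UMI of both genes of each pair beside the number expected within libraries and depth strata; right, share of cells with a Zic4, Zic5 or Zic2 UMI by the number of Zic1 UMIs, with exact 95% binomial intervals that cover counting error. Zic1 and Zic4 were together in 63 cells against 11.8 expected, and the Zic4 share is 42.5% in cells with 3 or more Zic1 UMIs.

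The 240 GABAergic neurons with a Zic1 UMI were then compared with the 1916 without, over summed counts of each library. Their medians were 3716 and 3462.5 UMIs. Zic1, which chose the cells, was not tested. Of 9607 other genes, 197 were higher (2.05%) and 275 lower (2.86%), 4.91% in all, with a median log2 difference of -0.01 over all genes. The same cells enter here as in the gates and in the co-detection counts, so these results are not independent of those.

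All 3 other members rose with Zic1. Zic4 was 82.4, 63.8, 97.9 and 87.7 CPM in cells with Zic1 and 2.47, 4.77, 3.23 and 7.85 CPM in those without (log2 4.19, SE 0.34, adjusted p = 1.41e-13). Zic5 was 11.0, 31.9, 17.3 and 38.6 CPM against at most 3.02 (log2 4.46, SE 0.70, adjusted p = 1.32e-05), and Zic2 was 13.7, 9.11, 11.5 and 28.1 CPM against at most 2.42 (log2 3.73, SE 0.77, adjusted p = 0.000986). No library overlapped between the groups for any of the 3. Of the 19 family and hedgehog pathway genes listed, 5 others than Zic1 passed the filter on low counts, with 4 called higher and none lower. No Gli factor or hedgehog receptor was among the called genes.

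Among the 5 largest rises of genes that moved the same way in 4 of 4 libraries were, beside Zic5, Slc10a4, a vesicular transporter-like gene of cholinergic and aminergic neurons, and Otx2, a homeobox factor of the anterior brain. Slc10a4 was 33.0, 41.0, 103.6 and 59.7 CPM in cells with Zic1 and at most 3.62 CPM in those without (log2 5.18, SE 0.51, adjusted p = 8.54e-11). Otx2 was 43.9, 36.5, 28.8 and 14.0 CPM against at most 3.02 (log2 5.12, SE 0.70, adjusted p = 7.15e-07). The others were C130074G19Rik (log2 4.92, SE 0.73, adjusted p = 3.60e-06) and Rspo4, which encodes a secreted enhancer of Wnt signalling (log2 4.86, SE 0.95, adjusted p = 0.000430). Groups did not overlap in any library for Slc10a4 and Otx2.

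Genes of acetylcholine synthesis and uptake were followed further after these values were seen. Chat, the acetylcholine-synthesising enzyme, had 16 UMIs in cells with Zic1 and 2 in those without (log2 5.40, SE 1.00, adjusted p = 0.000215), with none in the Zic1 cells of library 4. Only 6 GABAergic neurons had a Chat UMI, 4 of them with Zic1. Slc5a7, the high-affinity choline transporter, rose by 4.35 (SE 0.42, adjusted p = 3.45e-11). Its level was 33.0, 109.4, 224.5 and 7.02 CPM in cells with Zic1 and 0.618, 4.77, 6.46 and 4.23 CPM in those without, so that library 4 differed little. A UMI of Chat, Slc5a7 or Slc10a4 was found in 59 GABAergic neurons, and 36 of these (61.0%, exact 95% interval 47.4 to 73.5%) had a Zic1 UMI against 9.73% of the others. The numbers by library were 6 of 10, 6 of 10, 13 of 18 and 11 of 21. Zic4 was in 17, Zic5 in 8 and Zic2 in 5 of the 59. Of 23 neurons with an Otx2 UMI, 19 had Zic1 and 10 had Zic4. Slc10a4, Slc5a7 and Otx2 were picked after the comparison by Zic1 in these same cells. The shares with Zic1 therefore restate that comparison and are no separate support. The interval covers counting error over pooled cells only. When the 59 cells were left out of both sides, 312 genes were called in place of 472, and Zic2, Zic4 and Zic5 were all still higher.

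Among factors of the medial ganglionic eminence, the embryonic source of many interneurons and cholinergic neurons, 4 of 11 tested rose and 1 fell. Lhx8 was 71.4, 63.8, 115.1 and 70.2 CPM in cells with Zic1 and 23.05 ± 8.59 (SD, n = 4) in those without (log2 1.71, SE 0.25, adjusted p = 4.00e-06). Nkx2-1 (log2 1.17, adjusted p = 0.0436), Zeb2 (1.10, adjusted p = 0.0192) and Isl1 (0.62, adjusted p = 0.0163) were called higher. Calls of these 3 were lost when single libraries were left out and in DESeq2, and 1 factor was called higher without library 1. Of 9 tested septal, preoptic and diencephalic factors, Onecut2 (log2 1.95, adjusted p = 0.00184) and Zfhx4 (log2 0.71, adjusted p = 0.00436) rose and none fell. Onecut2 lost its call without library 4 (1.26, adjusted p = 0.291), and Zfhx4 without library 1 (0.55, adjusted p = 0.162).

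Of 12 tested factors of the lateral eminence and striatum, 6 fell and 2 rose. Without library 1 or 4 the number that fell was 2, without library 3 it was 3, and it was 2 in DESeq2 and with no replicate block. Meis2, a homeobox factor of striatal and amygdalar neurons, was 204.6 ± 84.9 CPM with Zic1 and 466.4 ± 65.6 without (log2 -1.24, SE 0.12, adjusted p = 3.34e-11), and Bcl11b, a factor of striatal projection neurons, 59.0 ± 24.1 against 222.7 ± 61.8 (log2 -1.81, SE 0.17, adjusted p = 3.45e-11), each lower in 4 of 4 libraries. Both risers, Isl1 and Sp8, are in other lists too, and Sp8 (log2 2.79, SE 0.76, adjusted p = 0.0195) rests on 15 UMIs on each side and lost its call without library 2, 3 or 4 (adjusted p of 0.315, 0.106 and 0.106). Of 6 tested caudal eminence factors, Sp8 rose and 3 fell, among them Nr2f1 (log2 -2.04, SE 0.27, adjusted p = 4.59e-07) and Nr2f2 (log2 -1.33, SE 0.20, adjusted p = 4.98e-06), orphan nuclear receptors. Both lost their calls in DESeq2 (adjusted p of 0.127 and 0.173), where 0 of 6 caudal factors were lower, and Nr2f2 also with no replicate block (adjusted p = 0.110). Drd1a, the dopamine D1 receptor and the only gene of the described Zic targets that was called, fell by 3.04 on the log2 scale (SE 0.51, adjusted p = 3.57e-05), while 2 of 3 tested targets did not pass.

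The neuropeptides were the list with the most calls. Of 17 tested, 12 fell and none rose, with a median of -1.88. Over the alternatives 7 to 12 fell, and 1 or 2 were called higher without the low-count filter, at a mitochondrial limit of 5% or without library 2. Npy was 126.3, 31.9, 92.1 and 98.3 CPM with Zic1 and 785.7, 357.7, 348.0 and 1109 CPM without (log2 -2.93, SE 0.14, adjusted p = 8.75e-22). Cck was 19.2, 4.56, 0 and 7.02 CPM against 239.6 ± 103.4 (log2 -4.59, SE 0.27, adjusted p = 2.86e-18). Both were lower in every library without overlap. Avp, the vasopressin gene, was 3 UMIs against 957 (log2 -5.28, SE 0.41, adjusted p = 5.00e-14). The gate of Avp or Gal, by contrast, did not pass for Zic1, at 61.2 ± 69.1 CPM against 69.0 ± 30.0 (SD, n = 4). Its edgeR difference was -0.09 (SE 0.32, adjusted p = 0.970), with 2 libraries higher in the gate and 2 lower. Of its 71 cells, 10 had a Zic1 UMI.

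Penk fell by 1.88 (SE 0.13, adjusted p = 1.97e-15), Tac1 by 2.77 (SE 0.20, adjusted p = 2.78e-15) and Cartpt by 2.08 (SE 0.15, adjusted p = 1.03e-14). Gal, Crh, Pdyn, the dynorphin precursor, and Sst, the somatostatin gene, were also lower, the last in 3 of 4 libraries and without a call when library 1 was left out (-0.75, adjusted p = 0.101). Gal, Crh, Pdyn and Sst did not pass in DESeq2, which called 7 of the 17 lower. Vip had 0 UMIs in cells with Zic1 and 173 in those without, at least 7.70-fold lower with the floor at 3 counts over the group. Pnoc was 274.7, 141.3, 161.2 and 172.0 CPM with Zic1 and 162.8, 147.3, 131.6 and 135.3 without, a difference of 0.40 (SE 0.13, adjusted p = 0.0743) that did not pass. It was called higher without library 2 (0.52, adjusted p = 0.0277) and at a mitochondrial limit of 5% (0.78, adjusted p = 0.000281).

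The largest falls beside Vip and Avp were Slc17a8 (log2 -4.96, SE 0.52, adjusted p = 7.67e-10), Frem3, an extracellular matrix gene, and Inf2, a formin gene. Frem3 had 0 UMIs against 106, at least 4.72-fold lower, and Inf2 0 against 75, at least 3.34-fold lower, although Inf2 did not pass in DESeq2 (adjusted p = 0.145). Of 20 tested receptors 1 rose and 2 fell. Of 10 tested transmitter genes 2 rose and 2 fell, with Chat and Slc17a8 given above and Ddc, a decarboxylase of amine synthesis, among the falls (log2 -1.68, SE 0.34, adjusted p = 0.000643). Of 6 calcium-binding protein genes 2 fell, and none without library 1. The mural marker Rgs5 was higher in the Zic1 cells (log2 2.91, adjusted p = 0.0430; 11 UMIs against 10) in 3 of 4 libraries, a call lost in 5 of 11 alternatives, and the 7 mural markers summed to 0 to 19.2 CPM with Zic1 and 2.78 to 5.96 CPM without. Their part in these results was not tested.

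**Figure D5:**
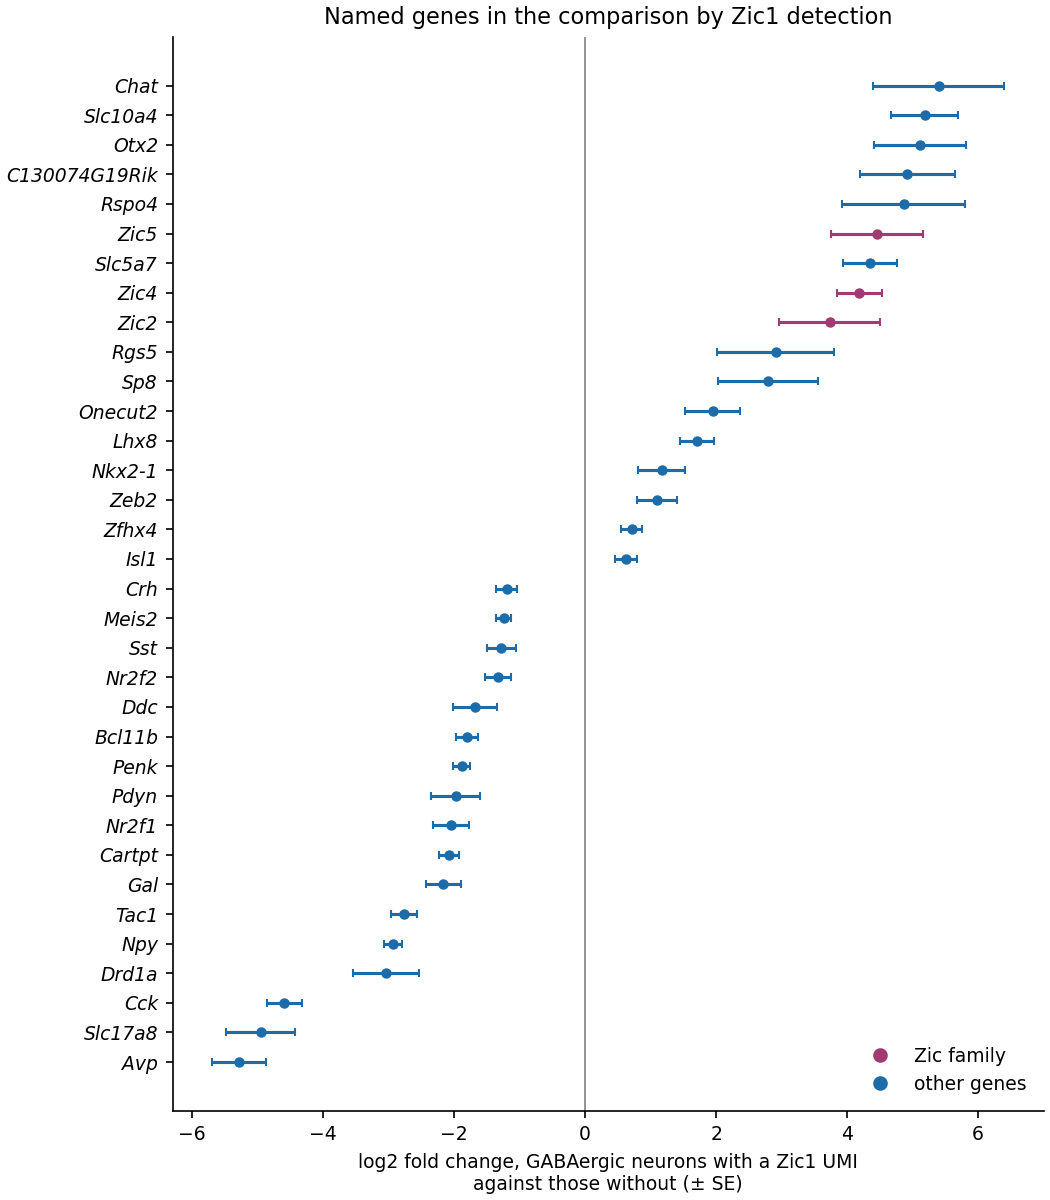
Fitted log2 fold change with standard error for genes named in the text and called between GABAergic neurons with and without a Zic1 UMI; genes with 0 UMIs on a side are not drawn. Zic2, Zic4 and Zic5 lie between 3.73 and 4.46, and Avp is lowest at -5.28.

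Split by Zic4 in place of Zic1, 93 GABAergic neurons were compared with 2063. Of 9562 genes other than Zic4, 43 were higher (0.45%) and 108 lower (1.13%), 1.58% in all. Zic1 was 326.1, 280.0, 762.3 and 599.7 CPM in cells with Zic4 and 20.3, 38.7, 60.4 and 75.0 CPM in those without, with no overlap (log2 3.32, SE 0.19, adjusted p = 6.83e-62). Zic2 (log2 4.07, SE 0.89, adjusted p = 0.000750) and Zic5 (log2 3.86, SE 0.80, adjusted p = 0.000234) rose too, Zic5 losing its call without library 4 (3.49, adjusted p = 0.136). With Hfe2, which encodes the iron-regulating protein hemojuvelin (log2 3.82, SE 0.95, adjusted p = 0.00701), they were the 3 largest rises of genes that moved the same way in 4 of 4 libraries. Hfe2 lost its call without library 2 or 4 (adjusted p of 0.114 and 0.0842).

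The 3 largest falls by Zic4 had 0 UMIs in its cells. These were Ppp1r1b, at least 13.9-fold lower, Slc17a8, at least 7.72-fold lower, and Filip1, at least 3.69-fold lower, which lost its call without library 1 or 4 (adjusted p of 0.112 and 0.0751). Of 17 tested neuropeptides 12 fell and Tac2 was called higher (log2 0.74), although only 2 of 4 libraries were higher and the direction turned when cells with a cholinergic UMI were left out (log2 -1.22, adjusted p = 1.51e-06). The list's median was -2.55, or -2.38 with Vip, which had 0 UMIs, set at its bound. Slc17a6 rose by 2.49 (SE 0.52, adjusted p = 0.000302) in cells with Zic4, higher in 3 of 4 libraries, and lost its call without library 1 or 2 (adjusted p of 0.0861 and 0.0797). Its difference by Zic1 was 1.39 (SE 0.51, adjusted p = 0.12). A difference between the splits was not tested. Splits by Zic2 and Zic5 were not fitted, because only 1 library held at least 10 positive GABAergic neurons of either gene.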

How the data were processed

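The authors' deposited tables hold raw UMI counts per gene and barcode, 1 table per library. The submitters' processing notes name bcl2fastq 2.18.0.12, STAR 2.4.2a, Picard 2.2.4 and the builds mm10 and GRCm38; the annotation, counting strand and choice of barcodes are not given in the sources used here. Members, lists, gates and tests were chosen with earlier results of these data known.

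Filters were 400 detected genes or more, 10% mitochondrial UMIs or less, and no doublet call by Scrublet in scanpy 1.11.5 (expected rate 0.05), which removed 62 barcodes. A class needs UMIs of at least 2 genes of its marker list and 80% of all class-marker UMIs. GABAergic neurons have at least 2 UMIs over Gad1, Gad2 and Slc32a1 and fewer of Slc17a6 and Slc17a7, and glutamatergic neurons the reverse. Sums of counts over at least 10 cells per library entered edgeR 4.0.16 (R 4.3.3), with TMM scaling, its low-count filter, the library as a block and the quasi-likelihood test, adjusted by Benjamini-Hochberg over all genes at 0.05. The pairing follows from the design, since paired sums share a library and its mice. The genes of a subtype gate and the gene of a split were not tested in that comparison. Class-marker and transmitter genes, which set the classes, were tested and count in the shares called. SEs were derived from the fold change and its F statistic. CPM is UMIs of a gene per 1000000 UMIs of the class. The edgeR p-values weigh differences between sums of the same library against the spread left after the library block. In the fit across classes that spread is estimated over all classes. Glutamatergic neurons and the Prkcd gate entered with 3 libraries and endothelial cells with 2. Intervals and floors (3 counts) cover counting error only.

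Named by rule were the members, listed genes past the threshold with the 25 smallest p, the 5 largest rises and falls by Zic1 and 3 by Zic4 that moved the same way in all libraries, and the 5 genes most like Zic1. The genes of the cholinergic group, Slc17a6, Pnoc, Isl1, Sp8, Nkx2-1, Zeb2, Zfhx4, Onecut2, Tac2 and Rgs5 were added after their values were seen. Some named items are not reported here. On counts simulated with 200 genes changed 2-fold, edgeR recovered 63.5% of them among 9278 genes for the split by Zic1, 28% among 9201 for that by Zic4, 58.5% among 4489 for glutamatergic against GABAergic neurons, 73.5% among 9869 for the Penk gate and 12% among 9281 for the Prkcd gate. Of the genes called in these simulations, 3.79%, 6.67%, 3.31%, 1.34% and 0% were wrong calls, in the same order. The simulation gave a gene the same mean level in every library, so differences between libraries did not enter it. Alternatives used DESeq2 1.42.0, other filters, gates, depths and normalisation, and left out each library. Sums, shares and plots were made in Python 3.11.15 with pandas 2.3.3, scipy 1.17.1, numpy 2.4.6 and matplotlib 3.10.9.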

Additional observations from a re-analysis of the deposited data

Results flagged for a closer look

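Among 40 sets of 4 library values of a member with at least 10 UMIs in all, a minimum set after the data were seen, 4 had a library far from the other 3 by Dixon's criterion, where about 2 would by chance. Zic1 in the gate of Tac2 or Ebf1 was 119.2 CPM in library 3 and 23 to 35.4 CPM in the others. Zic1 in the gate of Ppp1r1b or Crym was 35.4 CPM in library 4 and 0 to 5.38 CPM in the others. Zic1 in the gate of Tshz1 or Foxp2 was 19.6 CPM in library 1 and 51.3 to 57.4 CPM in the others. Zic4 in the gate of Vip or Calb2 was 19.2 CPM in library 3 and 10.1 to 10.9 CPM in the others. Barcodes under 200 detected genes, which enter no comparison, held Zic1 at 57.9 CPM (exact Poisson 95% interval 40.1 to 80.9), or 42.3, 48.1, 57.0 and 99.97 CPM by library.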

How the results depend on the processing

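The glutamatergic difference of Zic1 kept its direction and call under every alternative run, and its mean GABAergic level moved by less than 1 SD. The number of gates past the threshold was 9 and ran from 6 to 12, and calls of the Lhx8 or Rorb, Prkcd and Tac1 gates were lost under alternatives. The ratio of cells with Zic1 and Zic4 stayed above 1. Without each library in turn the level ran from 58.1 to 78.8 CPM, the difference from 1.57 to 1.75 on the log2 scale, the gates from 8 to 8 and the ratio from 4.80 to 6.44. With no replicate block, the pairing by library left out, the glutamatergic difference was 1.31 (adjusted p = 0.0186) and 6 gates passed. The thinned Zic1 share was 8.59% at 2000 UMIs and 5.04 to 6.77% without a library. The number of genes called by Zic1 was 93 with no replicate block, 156 in DESeq2, 288 at a mitochondrial limit of 5%, 312 without cells with a cholinergic UMI and 223 to 335 without a library, against 472. The call by Zic4 numbered 36, 50, 77, 82 and 66 to 106 under the same settings, against 151. Zic4 passed in 2 gates with no replicate block and in DESeq2, 3 at the 5% limit and 3 to 4 without a library, against 6. The Zic1 difference of the Pnoc gate turned to -0.083 with at least 3 UMIs. Isl1 by Zic4, -0.08 with all libraries, ran from -0.26 to 0.23 without a library. Tac2 by Zic4 turned to -0.34 at the 5% limit and -1.22 without cells with a cholinergic UMI. The Zic1 difference of the Prkcd gate had an adjusted p of 0.141 with no replicate block, 0.691 in DESeq2 and 0.343 without library 2. The cause of these changes was not tested. The marker share of 60% and the removal of cells with a cholinergic UMI were chosen after seeing the data. Zic2 and Zic5 had too few UMIs to pass the low-count filter in a gate, so their differences between gates were not tested.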

Other observations

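With at least 60% of marker UMIs from a class's list, 7 of 28 mural cells had a Zic1 UMI and 3 a Zic4 UMI, and 3 of 49 endothelial cells had Zic2 and 2 Zic5, with no Zic1 or Zic4. Of the 73 oligodendrocyte precursors this gate found, 1 had a Zic1 UMI and none another member. Of the 7 fibroblasts it found, 2 had a Zic1 UMI, and Zic2, Zic4 and Zic5 had 1 UMI each. Cells that met no class gate had Zic5 in 6 of 276 and Zic1 in 15. Of 281 GABAergic neurons with a Ppp1r1b UMI, 4 had Zic1 and none had Zic2, Zic4 or Zic5.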
